A study of Mus musculus with 12 samples.

Results

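The complement genes C3, C2, Cfb, Serping1, Masp1, Hc (which encodes C5) and Cd55 were followed here across mouse fat cell lines before and after differentiation. They were chosen by symbol among array probe sets that carry 1 gene symbol. Of the 7, 6 had such a probe set (14 probe sets in all), out of 18193 genes with one on the array. C3 had no probe set of its own symbol in the platform annotation and is not analysed here. The same holds for Cfd, the fat cell protease also called adipsin. Complement is a set of blood and cell-surface proteins that mark and attack microbes and damaged cells. Activation through the classical, lectin or alternative pathway converges on the cleavage of C3, and soluble and membrane-bound regulators hold it in check on the body's own cells. Fat cells are a known source of complement proteins, above all of the alternative pathway.

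The 12 Affymetrix 3' expression arrays fell into 4 groups of 3. 3T3-L1, an established mouse line of white-type preadipocytes, was taken as preadipocytes at day 0 and as adipocytes at day 10. A brown adipocyte line was taken as preadipocytes at day 0 and as adipocytes at day 8. Induction lasted 3 days. The white mix held dexamethasone at 1 µM, IBMX at 0.5 mM and insulin at 1 µg/mL, and the brown mix held the same dexamethasone and IBMX, insulin at 20 nM, the thyroid hormone T3 at 1 nM and indomethacin at 125 µM. Brown cells then kept insulin and T3 to the end, whereas white cells had insulin for some days and then plain growth medium, and the named serum also differed, so line, mix, medium and harvest day differ together and cannot be told apart. The labels do not say whether the arrays of a group came from separate cultures, so p-values measure only the spread between these arrays, and they name neither the strain nor the origin of the brown line.

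Markers of the labelled cell types were as follows. Adipoq, the adiponectin gene, had signals of 13.1 to 42.5 in white preadipocytes and 29260 to 34160 in white adipocytes, but already 16200 to 20790 in brown preadipocytes. The brown fat gene Ucp1 reached 333 to 468 in brown adipocytes and at most 30.5 in the other groups, and the preadipocyte gene Dlk1 fell in both lines. Of the other preadipocyte markers tested, Pdgfra and Cd34 fell in brown cells and were not called in white cells (0.19 and 0.26). Cd34 was above the filter level given below on 3 arrays, all of brown preadipocytes, so the filter favoured its fall. Its white signals, 5.15 to 25.5, were below that level, so a change in white cells could hardly be seen. All 5 hepatocyte markers, and 5 of 6 endothelial markers, were too dim to be tested. Signals below are the deposited linear intensities, given per array or as mean ± SD (n = 3). A gene entered the tests where at least 3 of the 12 arrays had it above their 40th percentile (32.8 to 41.1), which left 13760 genes. Changes are differences of log2(signal + 16) with the SE of the limma fit, and p-values are adjusted by the Benjamini-Hochberg method over those genes. Of the complement genes followed, Masp1, Serping1, C2 and Cfb passed this filter. Cd55 and Hc did not. Only Masp1 was bright: its signal lay between the 82.9 and 87.6 percentiles of the preadipocyte arrays, whereas no array put C2, Cfb or Serping1 above the 63.3 percentile.

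Masp1 encodes the lectin pathway protease MASP-1 and, by alternative splicing, MASP-3, which activates factor D of the alternative pathway. It was high in preadipocytes of both lines and fell with differentiation in both. In white preadipocytes its signals were 1193, 1075 and 1323, and in white adipocytes they were 264, 209 and 211. In brown preadipocytes they were 1054, 866 and 902, and in brown adipocytes 55.4, 54.8 and 7.59. Preadipocyte and adipocyte arrays did not overlap in either line, and the groups ranked, from high to low, white then brown preadipocytes, and white then brown adipocytes, with the preadipocyte groups close together (highest brown 1054, lowest white 1075). The white change was −2.32 (SE 0.357, adjusted p = 0.00022, limma) and the brown change −4.28 (SE 0.357, adjusted p = 2.74e-06). The brown fall was larger by 1.96 on the log2 scale (interaction −1.96, SE 0.504, adjusted p = 0.00828), and brown adipocytes lay below white adipocytes by a log2 difference of −2.30 (SE 0.357, adjusted p = 0.000254). Preadipocytes of the lines did not pass the test (−0.34, 95% interval −1.14 to 0.45, adjusted p = 0.456). Without brown adipocyte replicate 3, the array at 7.59, that difference was called at the same size (adjusted p = 0.0342). In brown adipocytes Masp1 was near the filter level, so the size of its fall depends on the pseudocount: the brown change was −4.97 with a pseudocount of 1 and −3.32 with 64.

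**Figure D1:**
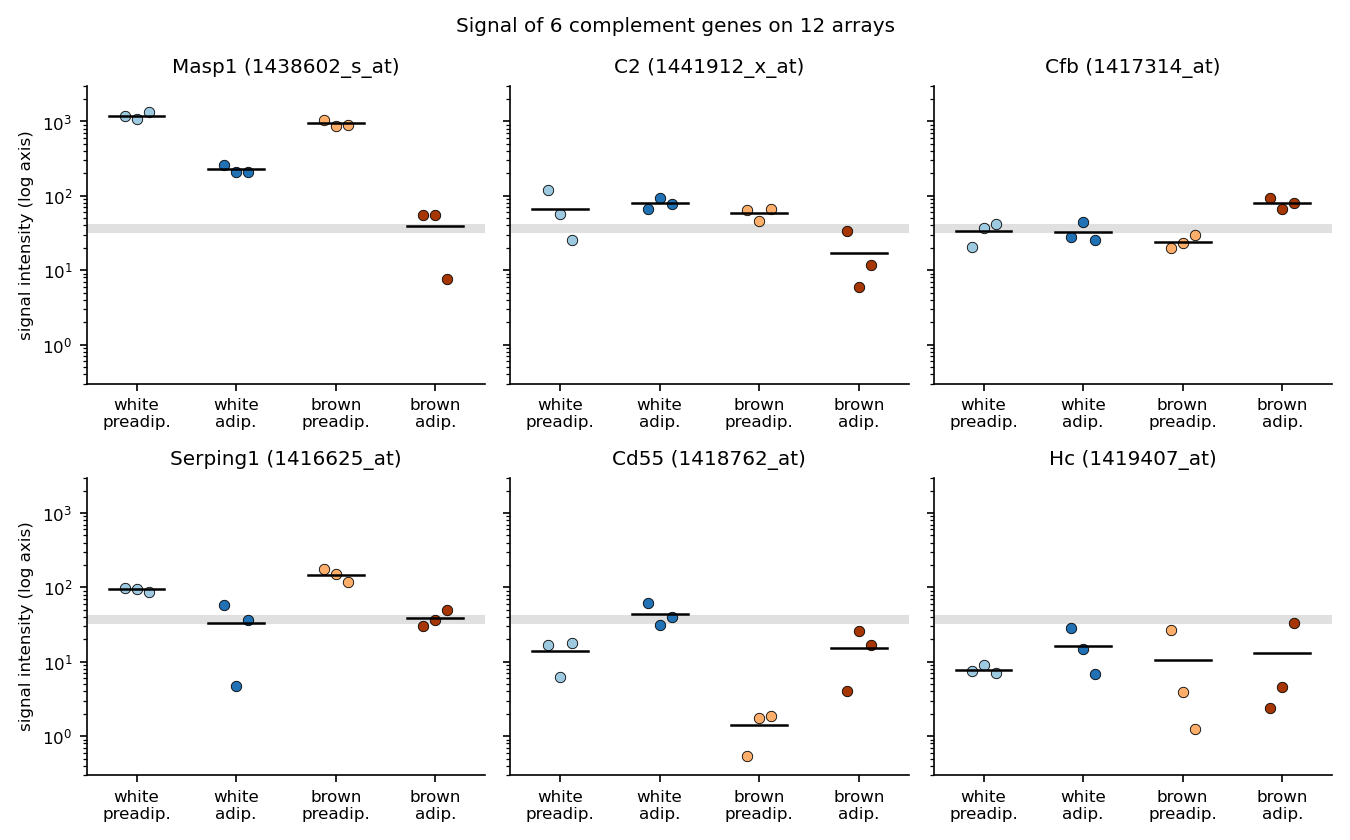
Signal intensity (log axis) of 6 complement genes on each of the 12 arrays, by group; points are arrays, black bars are group means, and the grey band is the range of the arrays' 40th percentiles (32.8 to 41.1). Masp1 stands far above the band in both preadipocyte groups and lower in adipocytes, while brown adipocytes are the only group in which Cfb lies above it on all 3 arrays.

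Masp1 had 5 probe sets, which show how far its fall depends on the probe. Signals on probe set 1425985_s_at were 905, 904 and 909 in white preadipocytes, 275, 266 and 261 in white adipocytes, 649, 574 and 705 in brown preadipocytes and 53.1, 62.2 and 50.1 in brown adipocytes. With it no group overlapped another. Fitted in place of the first, it gave −1.70 in white and −3.21 in brown cells, an interaction of −1.51, and called the difference between preadipocytes (−0.49, adjusted p = 0.000727). Each of the 5 probe sets had a called fall in brown cells, between −0.77 and −4.28. In white cells 4 of the 5 had one, and the dim 1419677_at (48.1 ± 10.7 and 35.8 ± 11.6) did not (−0.32, adjusted p = 0.154). The larger fall in brown cells was called with the one used and with 1425985_s_at, and not with 1438603_x_at (−0.58, adjusted p = 0.149), 1419677_at (−0.45, adjusted p = 0.169) or 1455346_at (−0.31, adjusted p = 0.468). On 1455346_at both adipocyte groups were near the floor, at 11.9 ± 11.9 and 4.95 ± 2.38, and their difference was not called (−0.34, adjusted p = 0.238).

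**Figure D2:**
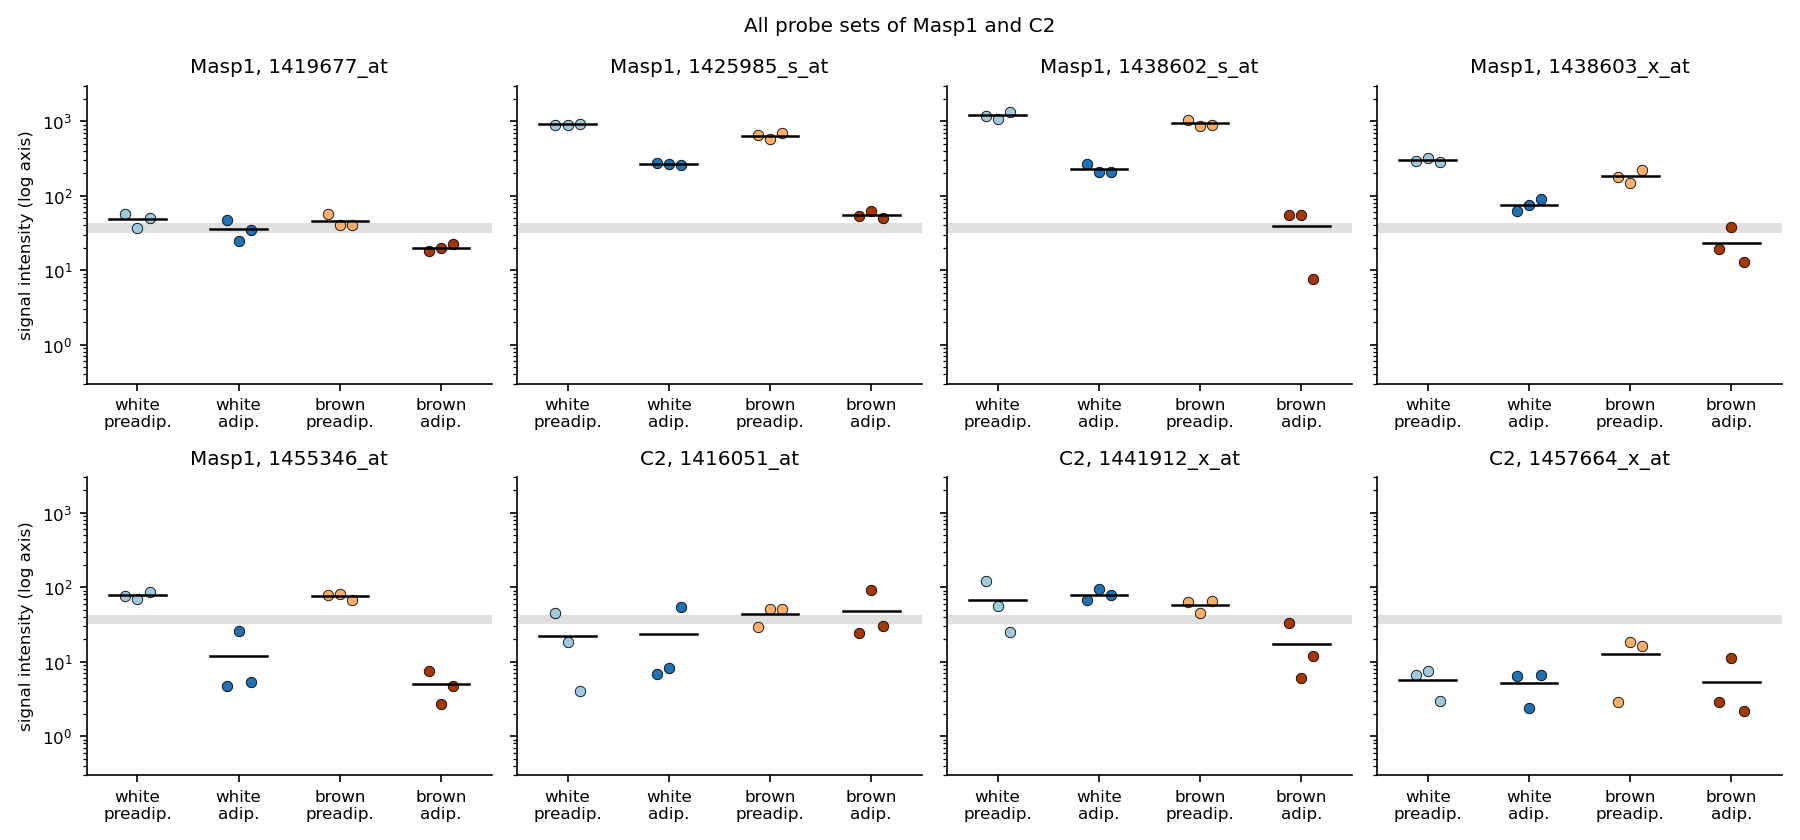
Signal intensity (log axis) of the 5 probe sets of Masp1 and the 3 of C2 on the 12 arrays, with group means as bars and the grey band of 40th percentiles. The 3 brightest Masp1 probe sets step down from preadipocytes to adipocytes in both lines, whereas the C2 probe sets 1416051_at and 1441912_x_at do not share a pattern.

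Serping1 encodes C1 inhibitor, the serpin that blocks C1r, C1s and the MASP proteases. It fell with differentiation in both lines, from a far lower signal. The white preadipocyte signals were 97.7, 96.2 and 87.4 and the white adipocyte signals 57.8, 4.68 and 36.4. The brown preadipocyte signals were 177, 149 and 119 and the brown adipocyte signals 30.6, 36.5 and 48.9. The arrays did not overlap between the 2 stages of either line, and the adipocyte groups overlapped each other. The changes were −1.35 (SE 0.377, adjusted p = 0.0101) in white and −1.59 (SE 0.377, adjusted p = 0.00436) in brown cells, and their difference was −0.24 (95% interval −1.43 to 0.95, adjusted p = 0.741). White adipocyte replicate 2, at 4.68, weighed on this: without it the white change was −0.82, still called, and the difference between the lines −0.77 (adjusted p = 0.0386). Brown and white preadipocytes differed by 0.57 (adjusted p = 0.235), although their arrays did not overlap; the fit without white adipocyte replicate 2 called this difference at the same size (adjusted p = 0.0223), as did the fit of only these 6 arrays (adjusted p = 0.0173).

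Cfb encodes factor B, the protease of the alternative pathway's C3 convertase. It rose in brown cells: the brown preadipocyte signals were 19.7, 23.3 and 29.9, and the brown adipocyte signals 93.4, 65.9 and 81.4. In white cells the preadipocyte signals were 20.8, 36.9 and 42.1 and the adipocyte signals 28.03, 44.3 and 25.4. Each brown adipocyte array lay above the other 9 arrays, which overlapped. The brown change was 1.25 (SE 0.202, adjusted p = 0.000352) and the white change −0.01 (95% interval −0.47 to 0.44, adjusted p = 0.956). The difference between the lines was 1.27 (SE 0.285, adjusted p = 0.00392) and that between the adipocytes 1.00 (SE 0.202, adjusted p = 0.00154). Cfb was above the filter level on 6 arrays, so its signal in the other groups was close to the floor, and the brown change was 1.69 with a pseudocount of 1 and 0.70 with 64.

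C2, the neighbour of Cfb on chromosome 17 and its counterpart in the classical and lectin pathways, gave results that differed between its probe sets. The probe set used, 1441912_x_at, had signals of 63.96, 45.5 and 66.2 in brown preadipocytes and 33.5, 5.96 and 11.7 in brown adipocytes, a change of −1.25 (SE 0.407, adjusted p = 0.0229). In white cells it had 120, 56.4 and 25.2 before and 66.4, 94.6 and 78.5 after differentiation (0.36, adjusted p = 0.475). On this probe set the brown adipocytes were the lowest group and did not overlap brown preadipocytes or white adipocytes. The difference between the lines was −1.61 (SE 0.576, adjusted p = 0.0394) and that between the adipocytes −1.61 (SE 0.407, adjusted p = 0.00596). Probe set 1416051_at, of the more specific design, had a brown change of −0.02 (adjusted p = 0.984), a difference between the lines of 0.02 (adjusted p = 0.986) and a difference between adipocytes of 0.78 (adjusted p = 0.249). The third, 1457664_x_at, was above the filter level on 0 arrays. The brown call was also lost without brown preadipocyte replicate 1 (adjusted p = 0.0619) or 3 (0.0644) and without brown adipocyte replicate 2 (0.085) or 3 (0.0657). The call on the difference between the lines was lost without any of 9 arrays (adjusted p up to 0.0891), the exceptions being white preadipocyte replicate 1, brown preadipocyte replicate 2 and brown adipocyte replicate 1.

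Cd55 encodes decay-accelerating factor, which takes C3 convertases apart on the cell surface, and Hc encodes C5, the start of the terminal pathway. Cd55 signals were 61.2, 31.4 and 40.1 in white adipocytes and 17.0, 6.15 and 18.1 in white preadipocytes. They were 4.00, 26.1 and 16.6 in brown adipocytes and 0.539, 1.77 and 1.87 in brown preadipocytes. On the probe set used, white adipocytes were the highest group and brown preadipocytes the lowest, each without overlap with the next. Cd55 was above the filter level on 2 arrays, both of white adipocytes, and was not tested. All its brown arrays lay below the filter level, so no brown change is given. Its other 2 probe sets were above the filter level on 2 and 0 arrays, and in brown cells their means ran the other way, from 5.77 to 1.70 and from 6.02 to 2.36. On both of them the white adipocyte and white preadipocyte arrays overlapped, and brown adipocytes had the lowest mean. Hc had signals of 1.25 to 32.9 over all 12 arrays and was above the filter level on 0 of them, with all groups overlapping.

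With 4 genes tested, the counts are small and are read here against those of all genes. In white differentiation 2 of the 4 tested genes were called, both down, where 61.2% of the 13760 genes were called, 30.1% up and 31.1% down; their median change was −0.68 against 0.02 over all genes. In brown differentiation 4 of 4 were called, 1 up and 3 down, where 58.7% of all genes were called, 27.2% up and 31.5% down (median −1.42 against −0.03). The difference between the lines was called for 3 of 4, 1 up and 2 down, against 51.1% of all genes, 23.6% up and 27.4% down, with medians of −0.93 and −0.05. Brown against white adipocytes gave 3 of 4, 1 up and 2 down, against 59.6%, 30.1% up and 29.5% down (medians −0.64 and 0.00), and brown against white preadipocytes gave 0 of 4 in limma, against 55.1%, 31.3% up and 23.8% down (medians −0.14 and 0.07). At an unadjusted p under 0.05 the last count was also 0. Arrays did not overlap for 66.1% of all genes in white differentiation, 65.2% in brown differentiation, 65.6% between the adipocytes and 61.9% between the preadipocytes. The comparisons share groups, and the filter favours genes that are high somewhere, so these counts describe the genes and no more.

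**Figure D3:**
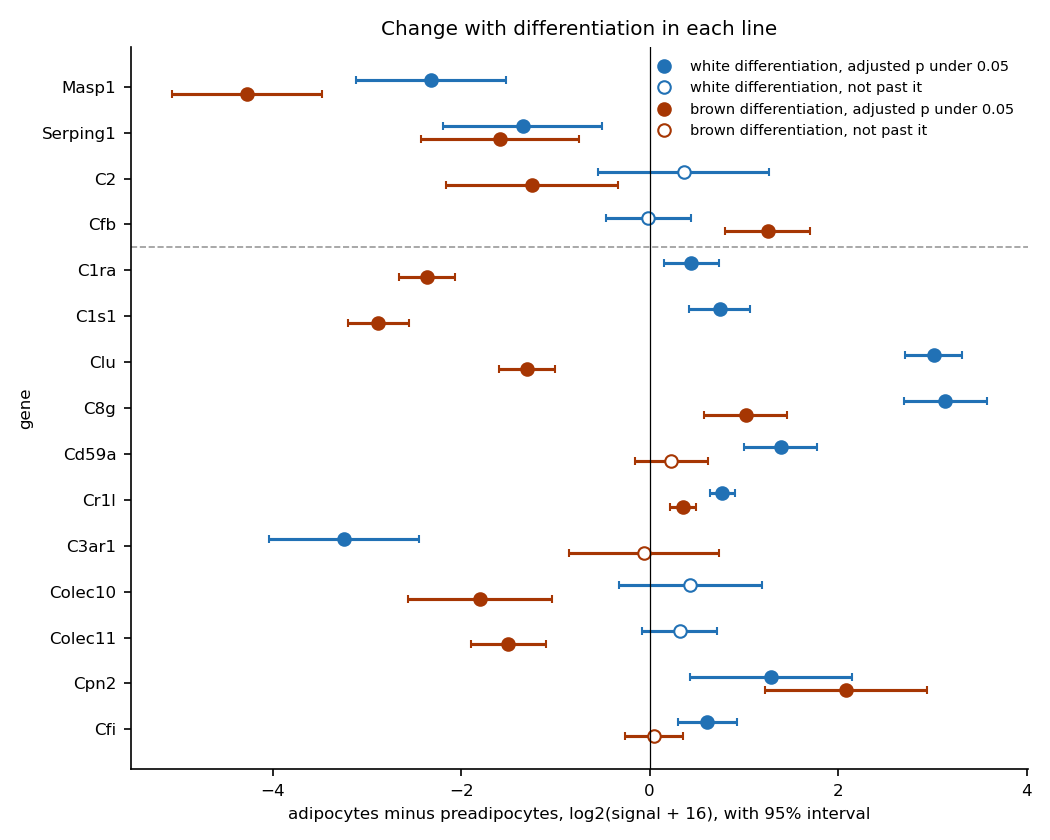
Differences of log2(signal + 16) between adipocytes and preadipocytes in white (blue) and brown (red) cells, with 95% intervals from the limma fit; filled points have an adjusted p under 0.05, and the dashed line parts the followed genes, above, from other complement genes. Masp1 and Serping1 lie left of 0 in both lines, Cfb lies right of 0 in brown cells only, and C1ra, C1s1 and Clu lie on opposite sides of 0 in the 2 lines.

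Masp1, Serping1 and C2 act with the classical and lectin pathways, whose other genes were read from lists by role. Of 47 other complement genes, 37 had a probe set and 20 passed the filter. In white differentiation 8 of the 20 rose and 1 fell (45% called, against 61.2% of all genes), and in brown differentiation 3 rose and 5 fell (40% called, against 58.7%). C1ra and C1s1 encode C1r and C1s, the proteases that Serping1's product inhibits, and of these C1s cleaves C4 and C2. C1s1 had signals of 954, 1365 and 939 in white preadipocytes and 1966, 1635 and 1817 in white adipocytes, and of 2513, 2325 and 2166 in brown preadipocytes and 334, 273 and 303 in brown adipocytes. It rose by 0.74 (SE 0.145, adjusted p = 0.00111) in white cells and changed by −2.88 (SE 0.145, adjusted p = 6.63e-08) in brown cells. C1ra went the same ways, by 0.44 (SE 0.131, adjusted p = 0.0136, with arrays that overlapped) and −2.36 (SE 0.131, adjusted p = 1.34e-07). Its call in white cells was lost with scaling to the hybridization controls (0.17, adjusted p = 0.325) and without white preadipocyte replicate 1 (adjusted p = 0.0505) or 3 (0.0533) or white adipocyte replicate 1 (0.0533). The C1 proteases and Masp1 fell in brown cells, and in white cells the proteases rose where Masp1 fell. Both genes have close copies beside them, C1rb and C1s2, and hybridisation to a copy cannot be told apart.

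C1ra and C1s1 are neighbours on chromosome 6, and their promoters are shown because these genes moved together in both lines; the tables used here hold promoters of 3 of the 7 followed genes (C3, Cd55 and Hc) and none of Masp1, Serping1, Cfb or C2. Each RefSeq window (GRCm38.p6) runs from 250 bases before to 50 after an annotated start, 5′ to 3′ on the gene's strand. Capitals mark matches on either strand to TTGCNNAA, the letters of a C/EBP site, or TTCNNNGAA, those of a STAT site, which do not overlap here. C1ra lies on the + strand at chr6:124512371-124512670 and the C1s1 window on the - strand at chr6:124542310-124542609.
C1ra: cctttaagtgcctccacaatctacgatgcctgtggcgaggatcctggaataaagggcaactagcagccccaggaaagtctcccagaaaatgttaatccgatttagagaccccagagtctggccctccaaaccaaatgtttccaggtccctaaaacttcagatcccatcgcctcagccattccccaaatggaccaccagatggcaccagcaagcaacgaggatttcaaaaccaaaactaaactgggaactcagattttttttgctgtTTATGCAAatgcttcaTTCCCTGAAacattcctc
C1s1: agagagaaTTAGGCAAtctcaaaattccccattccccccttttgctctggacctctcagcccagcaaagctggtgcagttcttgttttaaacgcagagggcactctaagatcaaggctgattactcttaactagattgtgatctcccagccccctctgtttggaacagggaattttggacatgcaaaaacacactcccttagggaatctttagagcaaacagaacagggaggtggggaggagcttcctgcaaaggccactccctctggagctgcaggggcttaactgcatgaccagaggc
C1ra held a match to the C/EBP letters, TTATGCAA, at base 17 after the start and one to the STAT letters, TTCCCTGAA, at base 33. C1s1 held TTAGGCAA, a match to the C/EBP letters, at base −242 before this start, outside the window of its other annotated start. Of 32851 promoter windows of this length, 10.8% held the C/EBP letters and 8.3% the STAT letters, so these matches are common. Searches on both strands for the letters of NF-kB sites in 2 forms, of an interferon response element and of the TATA box (TATAAA), held by 1.47%, 1.63%, 3.44% and 13.6% of windows, had no match in these 2. Of the followed genes, Cd55 had no match to any of the 6 motifs, Hc had 1 to TATAAA, and C3 had 1 each to TTGCNNAA and TATAAA.

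Other lectin pathway genes were dim. Of 6 tested, 0 were called in white differentiation (limma, and also 0 at an unadjusted p under 0.05), against 61.2% of all genes. In brown differentiation 2 fell (33.3% called, against 58.7% of all genes). These were the collectins Colec11, from 78.4 ± 26.1 to 16.6 ± 1.16 (−1.50, adjusted p = 3.98e-05), and Colec10, from 53.9 ± 17.4 to 3.65 ± 1.07 (−1.80, adjusted p = 0.00106). Colec11 was above the filter level on 3 arrays, all of brown preadipocytes, so the filter favoured its fall. Colec10 was also above it on 3 arrays, among them white adipocyte replicate 2 (48.9). With pseudocounts of 1 and 64 the brown change was −2.13 and −0.805 for Colec11 and −3.53 and −0.79 for Colec10. The mannose-binding lectin gene Mbl1 and the protease gene Masp2 could be tested and were called in neither line. On both probe sets of Masp2 the white adipocyte arrays lay above the white preadipocyte arrays without overlap. On 1420524_a_at, the probe set used, means went from 27.1 ± 3.89 to 47.5 ± 1.18. On 1451759_at they went from 11.1 ± 7.54 to 47.4 ± 2.33. The latter was above the filter level on 3 arrays, all of white adipocytes, and no test on it is given. With the probe set used for each gene, Masp1 was the one called in white cells among the lectin pathway genes tested. For the alternative pathway, only the properdin gene Cfp could be tested beside Cfb, and it passed in neither line (−0.14, adjusted p = 0.64, in white and 0.59, adjusted p = 0.0566, in brown cells). Of 5 terminal genes with a probe set, C8g, which encodes the lipocalin-like chain of C8, passed the filter. It rose in both lines, from 20.4 ± 10.4 to 295 ± 24.7 in white cells (3.14, adjusted p = 2.38e-07) and from 179 ± 25.3 to 377 ± 16.1 in brown cells (1.02, adjusted p = 0.0012). Its white preadipocyte arrays were below the filter level, so the size of the white rise depends on the pseudocount: 3.95 with 1 and 2.1 with 64. C6, C8a, C8b and C9, like Hc, were too dim to test.

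**Figure D4:**
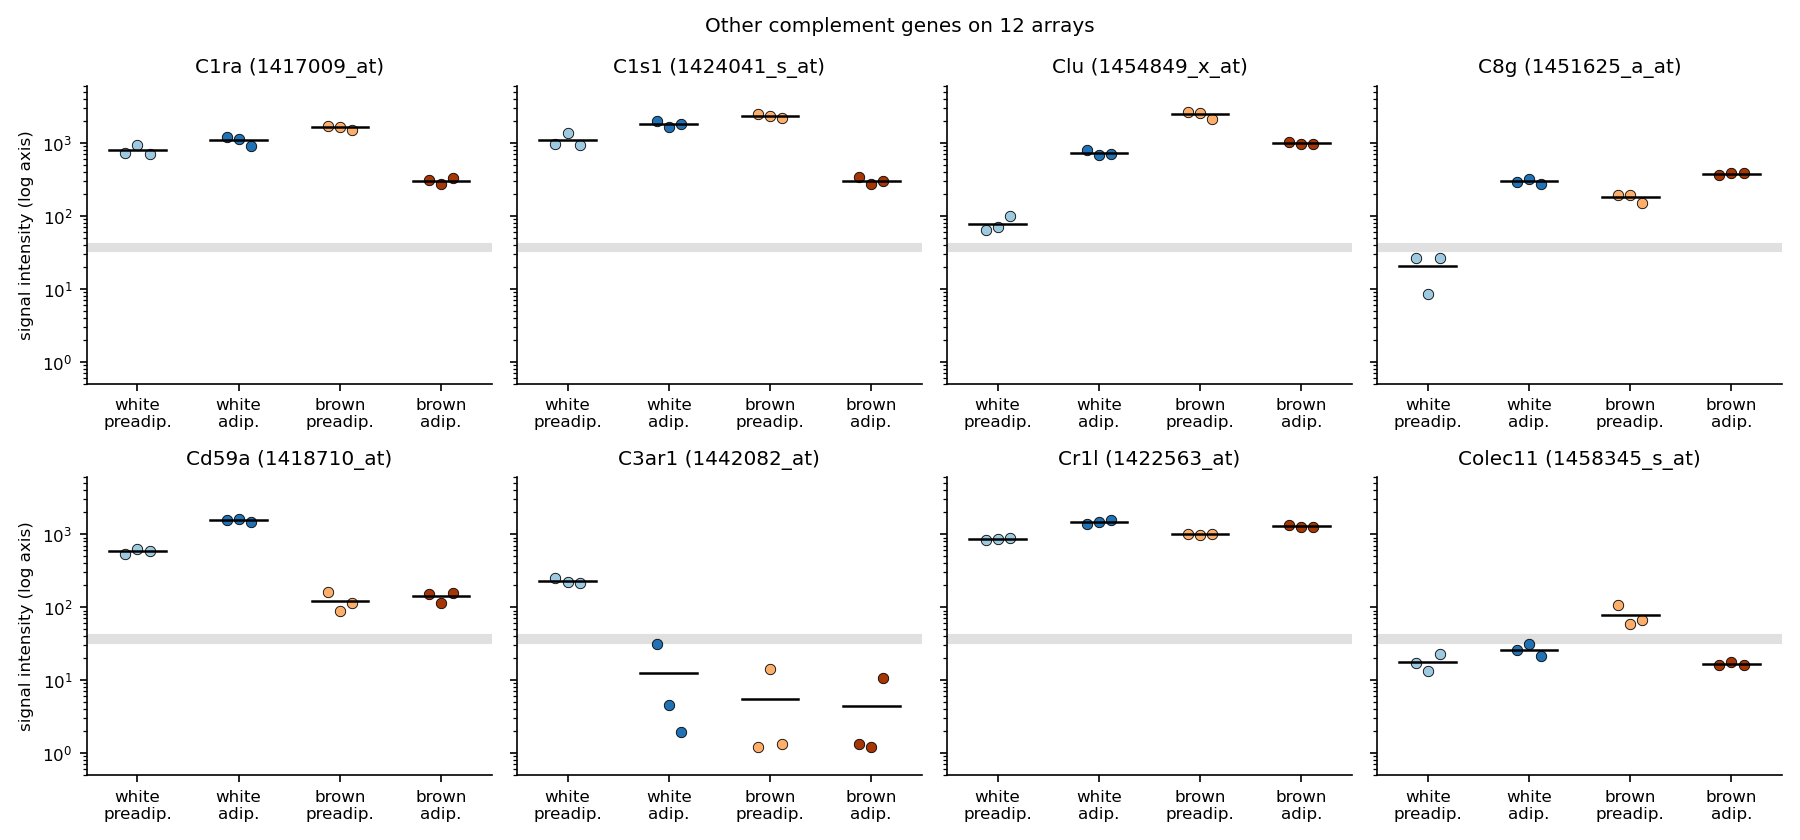
Signal intensity (log axis) of 8 other complement genes on the 12 arrays, with group means as bars and the grey band of 40th percentiles. C1ra and C1s1 are lowest in brown adipocytes and Clu in white preadipocytes, and C3ar1 stands above the band in white preadipocytes alone.

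Of 8 tested regulators beside Serping1, 5 rose and 0 fell in white cells, and 2 rose and 1 fell in brown cells, where 61.2% and 58.7% of all genes were called. Clu encodes clusterin, which blocks the terminal complex. It went from 77.3 ± 18.0 to 730 ± 59.4 in white cells (3.01, SE 0.134, adjusted p = 1.8e-08) and from 2452 ± 271 to 982 ± 45.1 in brown cells (−1.30, SE 0.134, adjusted p = 1.35e-05). All 4 of its probe sets had higher means in white adipocytes than in white preadipocytes and lower means in brown adipocytes than in brown preadipocytes. Cd59a encodes the membrane inhibitor CD59. It rose in white cells from 587 ± 38.9 to 1564 ± 78.9 (1.39, adjusted p = 4.53e-05), and in brown cells had 121 ± 36.0 and 142 ± 23.0 (0.23, adjusted p = 0.285). Cr1l, the rodent convertase regulator also called Crry, restrains C3 convertases as Cd55 does, and its probe set was far above the filter level in every group. It rose from 854 ± 26.4 to 1471 ± 84.8 in white cells (0.77, adjusted p = 1.33e-06) and from 1001 ± 18.5 to 1282 ± 38.2 in brown cells (0.35, adjusted p = 0.000547); the brown call was lost when arrays were scaled to the hybridization controls (0.14, adjusted p = 0.132) and both were lost with the mean of its 3 probe sets (0.41, adjusted p = 0.0621, and 0.13, adjusted p = 0.548). Cfi, the protease that cuts C3b and C4b, rose in white cells (0.61, adjusted p = 0.00287), and Cpn2, a subunit of the enzyme that inactivates C3a and C5a, rose from near the floor in both (1.29, adjusted p = 0.0141, and 2.09, adjusted p = 0.000887). Cpn2 was above the filter level on 4 arrays, all of adipocytes, so the filter favoured its rise. Its white adipocyte signals were 12.1, 17.95 and 71.5, and without replicate 3 the white change was 0.79. The sizes also depend on the pseudocount. A pseudocount of 1 gave a white change of 3.18 and a brown change of 3.41. With 64 the white change was 0.52 and the brown change 1.10.

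Of 7 complement receptor genes with a probe set, C3ar1 and Itgb2 passed the filter. C3ar1, the receptor for C3a, had signals of 248, 223 and 215 in white preadipocytes, 30.9, 4.51 and 1.97 in white adipocytes and 1.22 to 14.1 in the brown groups. It fell in white cells (adjusted p = 1.81e-05) to signals below the filter level, so the size of the fall is set by the pseudocount: −3.24 with 16, −4.83 with 1 and −1.96 with 64. The brown groups were also below that level, so C3ar1 passed the filter only through white preadipocytes. Macrophages carry this receptor, so macrophage markers were read beside it. The summed signal of 10 such markers was 1601 to 1757 in white preadipocytes, 1041 to 1135 in white adipocytes, 583 to 671 in brown preadipocytes and 534 to 566 in brown adipocytes. Most of it came from Lyz2 (787 to 975 in white preadipocytes) and Cd14, whereas Ptprc, Tyrobp and Aif1 were too dim to test. Of 7 markers tested, 3 fell in white differentiation, Lyz2 and Cd14 among them, Cd68 rose (1.01, adjusted p = 0.00814) and 3 were not called: Adgre1 (0.13), Csf1r (−0.22) and Laptm5 (−0.05). In brown differentiation 2 fell and 0 rose. Of the 7, 57.1% were called in white and 28.6% in brown differentiation, against 61.2% and 58.7% of all genes. The part of the macrophage markers in the C3ar1 result was not tested. In these bulk samples, fewer cells of a type and less RNA per cell cannot be told apart.

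For each of the 4 followed genes that passed the filter, the closest companions over the 12 arrays were found by Pearson correlation of log2(signal + 16) among all tested genes. The 12 points are 4 groups of 3, so r follows mainly the group means and is a description. For Masp1 these were Ttll7 (r = 0.99, Spearman 0.972), Rhoc (0.987 and 0.923) and Plk2 (0.986 and 0.965). Plk2, a polo-like kinase, fell like Masp1 in both lines, by 2.12 and 3.85 on the log2 scale (adjusted p = 1.7e-06 and 2.87e-08). For Cfb they were Cecr2 (0.938, Spearman 0.832), Fgl1 (0.927 and 0.874) and Fam120aos (0.925 and 0.825), each highest on the 3 brown adipocyte arrays. Without the 2 arrays farthest from the Cfb median r was 0.84, 0.824 and 0.824. Fgl1, a secreted protein, went from 7.05 ± 4.63 to 340 ± 36.8 in brown cells. It was above the filter level on 3 arrays, all of brown adipocytes, so it was tested only through the group in which Cfb was high. For C2, on probe set 1441912_x_at, they were Pomt2 (0.918, Spearman 0.916), Tox4 (0.914 and 0.951) and Elp3 (0.888 and 0.846). Without the 2 arrays farthest from the C2 median r was 0.816, 0.814 and 0.744. The differences of these companions between brown and white adipocytes were called and small, at −0.47, −0.42 and −0.32. Probe set 1416051_at of C2 did not share the pattern of 1441912_x_at, so these companions hold for 1441912_x_at alone.

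For Serping1 the closest companion was Ube2l6, an interferon-inducible conjugating enzyme for ISG15 (r = 0.96, Spearman 0.93), and in the reference gene table Ube2l6 is the protein-coding gene next to Serping1 on chromosome 2. Nosip (0.94) and 5033430I15Rik (0.935) followed. Ube2l6 had signals of 196, 183 and 144 in white preadipocytes, 92.3, 35.6 and 111 in white adipocytes, 221, 211 and 214 in brown preadipocytes and 88.6, 98.0 and 89.3 in brown adipocytes. It was lowest on white adipocyte replicate 2, the array on which Serping1 was lowest too. Without that array r was 0.926, and without the 2 arrays farthest from the Serping1 median it was 0.917. Ube2l6 fell by 1.08 and 1.10 on the log2 scale in white and brown cells (adjusted p = 0.00562 and 0.00563).

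**Figure D5:**
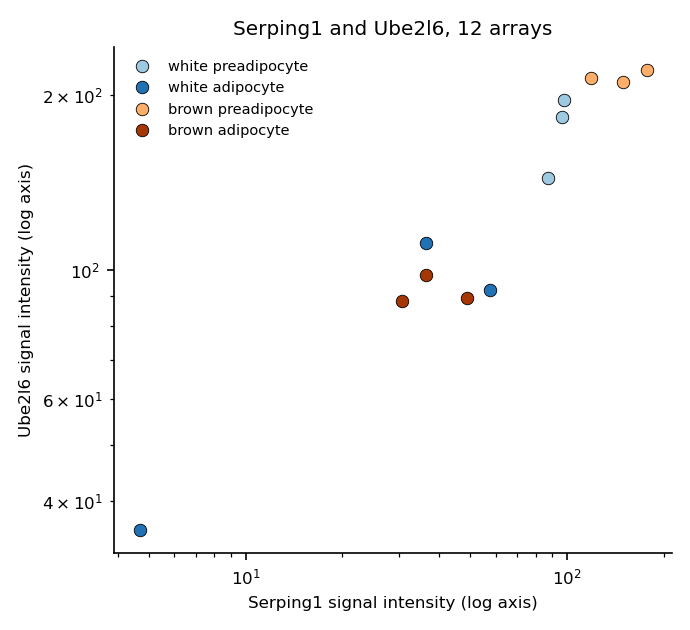
Signal intensity of Serping1 (x axis) against Ube2l6 (y axis), both on log axes, for the 12 arrays coloured by group. Preadipocyte arrays lie at the upper right, adipocyte arrays lower, and white adipocyte replicate 2 (4.68 and 35.6) lies apart at the lower left.

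A sign of RNA quality and labelling, the ratio of 3' to 5' signal of control probe sets, differed between the stages without overlap for beta-actin. It was 1.40 ± 0.0554 in white preadipocytes and 2.25 ± 0.151 in white adipocytes, and 1.49 ± 0.0626 and 2.42 ± 0.0478 in brown cells (exact permutation p = 0.1 each, two-sided, n = 3, the smallest possible). The Gapdh ratio was 0.861 ± 0.0342 and 0.828 ± 0.00689 in white and 0.775 ± 0.0296 and 0.814 ± 0.0189 in brown cells (exact permutation p = 0.1 and 0.2, n = 3). The part of this in the changes of Masp1, Serping1, Cfb and C2 was not tested. Scaling to the hybridization controls moved the median change of all genes from 0.02 to −0.23 in white and from −0.03 to −0.22 in brown differentiation, and the calls over all genes from 4140 up and 4285 down to 2949 and 5646 in white, and from 3737 and 4341 to 2640 and 5629 in brown differentiation. Masp1 and Serping1 in both lines, and Cfb in brown cells, kept their directions and calls. C2 kept its call in brown cells but lost that on the difference between the lines (−1.53, adjusted p = 0.0516), as it did with quantile normalization (adjusted p = 0.0509) and with no filter (0.0532). Scaling to equal medians moved the preadipocyte comparison from 4308 up and 3274 down to 2729 and 4955, with 0 of the 4 followed genes called either way.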

How the data were processed

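Total RNA of 12 mouse cell samples was labelled with biotin for Affymetrix 3' arrays, per the labels' protocols. Each array's deposited table gives 1 signal intensity per probe set on a linear scale. The submitters' processing notes name Affymetrix Expression Console as the authors' tool, and its version and summary method are not stated there. The mean after trimming 2% at each end was 500.003 to 500.004 on every array, so the arrays share a scale. Of 45101 probe sets, 34958 carried 1 symbol, 932 several and 9211 none. Control probe sets (64) were left out. The probe set with the highest mean stood for a gene. Values were taken as log2(signal + 16), fitted on 4 group means with limma 3.58.1 in R 4.3.3 (8 residual and 1.81 prior degrees of freedom) and called at an adjusted p under 0.05. Having 3 arrays per group limits the precision. On simulated data with 13760 genes, 47 of 50 genes changed by 2 (log2) and 34 of 50 changed by 1 were recovered in white differentiation. Among the unchanged genes 10 were called. The simulation changed only 50 genes at each size tried, whereas 61.2% of all genes were called in the real comparison. Its shares therefore do not measure the recovery in these data.

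Correlations within groups were 0.977 to 0.982 over all probe sets, and 0.884 to 0.935 between groups. Named genes were the followed genes, 3 companions per tested gene by correlation, and the markers Adipoq, Ucp1 and Dlk1. Other complement genes named were up to 6 rises and 6 falls in white and in brown differentiation (called, arrays not overlapping). For the difference between the lines, all called ones are given. The 64 gene results counted below also include other complement genes called between the lines at the same stage, most of which are not set out here. C1ra in white cells, Cfi, Cd59a in brown cells, Mbl1, Masp2, Cfp and the macrophage markers describe a list. The genes and lists were chosen with earlier results of these data known. Alternatives were other pseudocounts, scalings, filters, probe sets, moderation, a replicate block and each array left out. Exact tests used scipy 1.17.1, and plots were drawn with matplotlib 3.10.9 under Python 3.11.15.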

Additional observations from a re-analysis of the deposited data

Results flagged for a closer look

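The change with differentiation differed between the lines for 3 of the 4 followed genes tested and 10 of the 20 other complement genes tested, by the interaction in limma with p-values adjusted over all 13760 genes (51.1% of which were called). Values are the brown change minus the white change on the log2 scale. Among the followed genes, Masp1 had −1.96 (adjusted p = 0.00828), C2 −1.61 (0.0394) and Cfb 1.27 (0.00392). In the classical pathway, C1s1 had −3.62 (adjusted p = 3.2e-07) and C1ra −2.81 (9.33e-07). The collectins had −2.23 (Colec10, adjusted p = 0.00306) and −1.82 (Colec11, 0.000175), and the terminal gene C8g had −2.12 (0.00012). Colec11 passed the filter only through brown preadipocytes. With pseudocounts of 1 and 64 the values were −4.32 and −0.98 for Colec10, −2.67 and −0.945 for Colec11, and −2.87 and −1.23 for C8g. Of the regulators, Clu had the widest gap at −4.31 (adjusted p = 5.97e-08), followed by Cd59a at −1.16 (0.00262), Cfi at −0.56 (0.0342) and Cr1l at −0.42 (0.00218). The receptor gene C3ar1 had 3.18 (adjusted p = 0.000438), with a called fall in white cells and values near the floor in brown cells. It passed the filter only through white preadipocytes. The call on C2 was kept in 8 of 23 alternatives and that on Cfi in 8 of 22, and each was lost when any 1 of 9 arrays was left out. That on Masp1 was lost with 3 of its other probe sets, and that on Cr1l with equal medians (−0.28, adjusted p = 0.0953) and with the mean of its probe sets (−0.28, adjusted p = 0.38).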

How the results depend on the processing

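Over 64 gene results and 1498 alternative values, 1397 kept their direction and their side of the threshold, 71 kept the direction but lost the call, 7 gained one and 23 changed sign; with an array left out, 721 of 768 kept both. With the filter at the 60th percentile Masp1 alone was tested, and 1 gene was called in each of the white, brown, adipocyte and line-difference comparisons. With less specific probe sets left out, 1 was called for the line difference and 1 between adipocytes (Cfb in both). Between preadipocytes 1 was called with the mean of all probe sets (Masp1) and with only the arrays compared (Serping1). With an array left out the called number was 2 to 2 in white and 3 to 4 in brown differentiation, 2 to 3 for the line difference, 3 to 3 between adipocytes and 0 to 1 between preadipocytes.

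Sign changes fell mostly on values near 0. For C2, probe set 1416051_at, alone or through the design rule, gave −0.033 in white cells, 0.018 for the line difference, 0.78 between adipocytes and 0.76 between preadipocytes. Its preadipocyte difference was also 0.052 with a pseudocount of 1, 0.067 with hybridization controls and 0.37 with the mean of probe sets, and −0.43 to 0.44 with an array left out. Its white change was then −0.061 to 0.80 and that of Cfb −0.21 to 0.12. For Serping1 the line difference was 0.11 with a pseudocount of 1 and −0.77 to 0.15 with an array left out, and its adipocyte difference −0.20 to 0.72. Cr1l gave 0.55 between adipocytes with the mean of probe sets and −0.05 between preadipocytes with equal medians. The cause was not tested.

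Replicate numbers do not pair the samples: deviations of same-numbered arrays correlated at −0.03 to 0.07. With the replicate block 2 followed genes were called in white and 4 in brown differentiation, 3 for the line difference, 3 between adipocytes and 0 between preadipocytes, and over all genes 8344 instead of 8425 were called in white and 7978 instead of 8078 in brown differentiation. Signals of C2, Cfb and Serping1 close to the filter level limit what their sizes can show.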
